A study of Mus musculus with 8 samples.

Results

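The genes described here build or serve the vacuolar proton pump and the acid-base transport of the kidney's intercalated cells. They are every gene of the deposited expression table whose symbol begins with Atp6v or Atp6ap, pseudogenes left out, together with Tcirg1, the transcription factor genes Foxi1, Hmx2 and Dmrt2, the transporter, channel and receptor genes Slc26a4, Slc26a7, Aqp6 and Insrr, and the carbonic anhydrase genes Car2, Car12 and Car15. The rule used names alone and gave 36 of 47729 genes, 26 of them pump subunits or accessory proteins. Whole kidneys were taken on postnatal day 8 (P8) from mice homozygous for a floxed Kctd1 allele and carrying a Six2-driven Cre recombinase (Six2Cre+KCTD1fl/fl), and from control littermates, whose genotype at each allele is not given further in the labels. Total RNA was sequenced from 4 knockout and 4 control kidneys, the latter called wildtype in the labels and here. Six2 marks the progenitors of the nephron, so this Cre is known to act in nephron epithelium and to spare the collecting duct, and KCTD1 is known as a repressor of AP-2 transcription factors. The labels do not say that each library came from a separate animal, so the p-values measure only the spread between these libraries.

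The vacuolar proton pump is a rotary enzyme in which a cytosolic V1 sector splits ATP and a membrane V0 sector carries protons across. Most cells use it to acidify lysosomes, endosomes and the Golgi, whereas intercalated cells of the connecting tubule and collecting duct place it in the plasma membrane to secrete acid into urine or into blood. Several subunits exist in a form found in nearly all cells and in a form enriched in intercalated cells, and loss of the B1 or a4 form causes distal renal tubular acidosis, often with hearing loss. Foxi1 is the forkhead transcription factor required for these cells to form.

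No proton pump or intercalated cell gene passed the threshold between knockout and wildtype kidneys. In CPM (counts scaled to a library of common size), Foxi1 and Car12 were the genes whose every knockout library lay above every wildtype library, by 25% and 15.5% of the wildtype level, and Car15 was the gene whose every knockout library lay below (-14.7%). In the deposited TPM, Foxi1 and Car12 overlapped between groups, with knockout 2 below all wildtype libraries, and Car15 did not overlap. The low TPM of knockout 2 was not particular to these genes. Atp6v1a (38.5 TPM) and Atp6v1b2 (36.4 TPM) were also lowest there, with CPM (416 and 248) inside the range of the other libraries. This did not hold for every gene, as Atp6v0a2 was lowest in wildtype 1. Among pump subunits, the intercalated cell form Atp6v0a4 was lower and the ubiquitous form Atp6v0a1 was higher in knockout, and the ratio of the 2 separated the groups. The share of Atp6v0a4 among all a forms overlapped between groups. Of the 36 genes, 34 had enough counts to be tested. The other 2, Atp6v1e2 and Atp6ap1l, had 0 or 1 count in each library. The main test was the quasi-likelihood test of edgeR over all genes, with p-values adjusted after Benjamini and Hochberg. Of the 34, 0 passed at an adjusted p of 0.05, and 0 passed with DESeq2 or with limma, where 0.0809% of all 18548 tested genes passed with edgeR. The smallest adjusted p of the 34 was 0.468.

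At an unadjusted edgeR p under 0.05, 3 of the 34 were higher in knockout (Foxi1, Car12 and Atp6v0a1; 8.82%) and 2 were lower (Atp6v0a4 and Car15; 5.88%). Over all tested genes the shares were 3.11% higher and 3.08% lower. Genes whose groups did not overlap made up 5.88% of the 34 in the higher direction and 2.94% in the lower, beside 1.97% and 2.06% of all genes. These counts rest on 1 to 3 genes each. The log2 fold changes of the 34 ran from -0.23 to 0.32 with a median of 0.04, 25 positive and 9 negative, beside a median of 0.00116 over all genes. Fitted instead with limma on log2(TPM + 1), with no scaling between libraries, all genes had a median of -0.11. Of the 34, 18 took the other sign there, so the signs of small list medians depend on the scale used. Knockout 2, low in TPM for the genes named above, was part of that fit. Its part in these signs was not tested. The 95% interval of the difference lay within 1.5-fold in both directions for 32 of the 34 (94.1%), against 61.1% of all tested genes. The exceptions were Atp6v0a2, with an interval of the log2 fold change from -1.40 to 1.24, and Slc26a7, with one from -0.08 to 0.61. All 34 averaged at least 5 CPM, as did 13128 of the 18548 tested genes, so these shares were not matched for level. In these whole kidneys a smaller number of cells of a type and a lower RNA level per cell cannot be told apart.

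**Figure D1:**
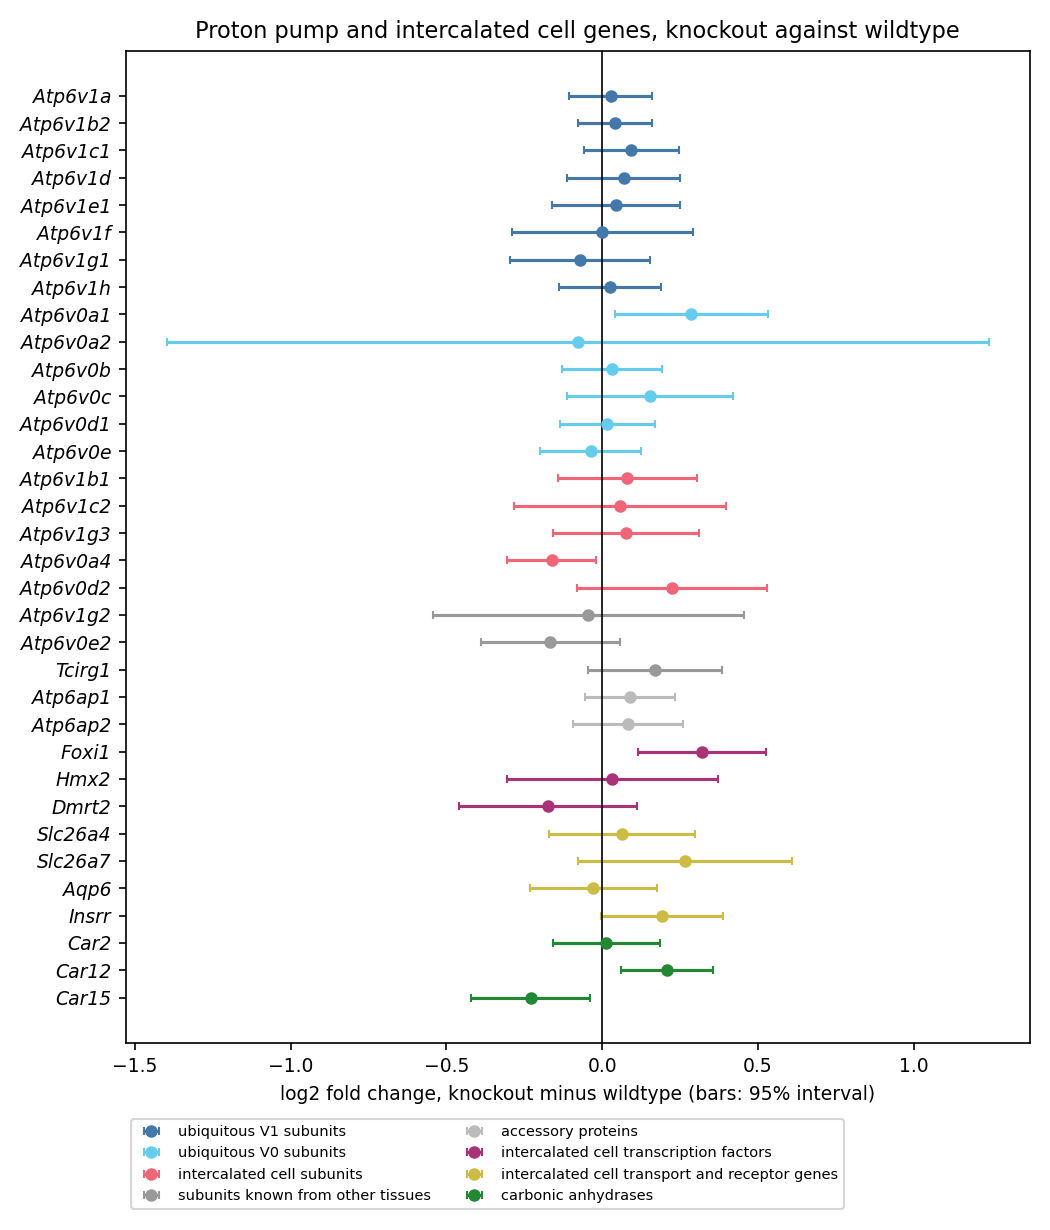
Difference between knockout and wildtype kidneys for the 34 tested genes, coloured by group. Points are log2 fold changes and bars their 95% intervals; the points run from -0.23 (Car15) to 0.32 (Foxi1), and the interval of Atp6v0a2, from -1.40 to 1.24, is the widest of the 34.

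The libraries held 14457760 to 20741076 counts. Kctd1 itself measured 22.4, 25.4, 25.8 and 23.5 CPM in knockouts 1 to 4 and 32.1, 28.9, 32.6 and 32.6 CPM in wildtype 1 to 4, so the groups followed their labels without overlap, although a whole-kidney gene total also holds spared cells and any exons kept in the deleted allele (edgeR adjusted p = 0.279). Reads of Xist, transcribed from the inactive X chromosome of females, were abundant in knockout 2 and wildtype 3 alone. Without these libraries 0 of the 34 passed, where 3 genes of the whole table did. Of the 34, 3 had an unadjusted edgeR p under 0.05, and the share of all genes in that fit was not counted. Knockout 2 also had 5.39% of its counts on a ribosomal RNA row, against at most 1.1% in the others. Its part in the TPM values given here was not tested. CPM are scaled with edgeR's TMM factors and serve to compare libraries, and TPM as deposited, which divide by transcript length within a library, serve to compare genes.

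Promoters of ubiquitous and intercalated cell subunits were described by their base composition and by short motifs. Promoter windows, from 250 bases before to 50 bases after an annotated start, were taken from RefSeq (GRCm38.p6) and matched 26 of the 36 genes with 32 windows. The 3 motifs were sought on both strands. They are CACGTG, the E-box, the same with T before and A after it, which is the core of the motif bound by the lysosomal regulator TFEB and is always also an E-box, and TGTTTAC, a motif of forkhead factors. The ubiquitous subunits had 11 windows of 9 of their 14 genes, and 3 of the windows belonged to Atp6v0c. An E-box stood in 4 of the 11 windows (36.4%), in Atp6v0b, Atp6v0d1, Atp6v1a and Atp6v0e, beside 7.15% of all 32851 promoters. In the last 3 (27.3%) it had the longer form, beside 0.974% of all promoters. None of the 4 windows of intercalated cell subunits held an E-box, and 1, that of Atp6v1b1, held the forkhead motif, which stood in 0 of the 11 ubiquitous windows and in 3.65% of all promoters. The ratio of observed to expected CpG had a median of 0.801 in ubiquitous windows, 0.124 in those of intercalated cell subunits and 0.384 over all promoters. Within the intercalated cell set it ran from 0.0579 to 0.679, the last in Atp6v1c2. Of the 6 windows of Foxi1 and the other intercalated cell genes outside the pump, 1, that of Aqp6, held an E-box and 0 held the forkhead motif. With 4 windows of intercalated cell subunits and a share of 7.15% over all promoters, the lack of an E-box there sets no contrast. The forkhead difference rests on 1 window. The E-box itself holds a CG pair, and its share was not compared with promoters of similar CpG ratio. A match is a description of letters and shows no binding.

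The following windows are examples from these sets, with matched motifs in capitals, each read 5′ to 3′ on the gene's strand. Atp6v0b (chr4:117887280-117887579, minus strand) holds 2 E-boxes, which begin 36 and 18 bases before the start. Atp6v0d1 (chr8:105566015-105566314, minus strand) holds the longer form, of which only CACGTG is in capitals. That CACGTG begins 3 bases before the start and runs across it. Atp6v1b1 (chr6:83742767-83743066, plus strand) holds the forkhead motif 98 bases before the start. Atp6v0a4 (chr6:38124537-38124836, minus strand) and Foxi1 (chr11:34208040-34208339, minus strand) hold none of the motifs in these windows. They are shown as genes with an unadjusted edgeR p under 0.05, neither of which passed the adjusted threshold.
Atp6v0b: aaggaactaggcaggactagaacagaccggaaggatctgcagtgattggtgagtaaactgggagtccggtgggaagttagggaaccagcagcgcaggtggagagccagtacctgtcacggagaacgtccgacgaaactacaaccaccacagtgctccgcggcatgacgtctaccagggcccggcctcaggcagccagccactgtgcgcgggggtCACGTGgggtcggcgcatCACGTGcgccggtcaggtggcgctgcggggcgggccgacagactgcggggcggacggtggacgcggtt
Atp6v0d1: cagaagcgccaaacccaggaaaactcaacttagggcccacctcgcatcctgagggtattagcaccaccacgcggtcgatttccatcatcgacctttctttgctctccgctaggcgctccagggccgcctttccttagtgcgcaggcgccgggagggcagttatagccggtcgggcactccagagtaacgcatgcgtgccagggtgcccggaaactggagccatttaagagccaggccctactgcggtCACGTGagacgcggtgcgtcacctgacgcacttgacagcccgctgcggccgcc
Atp6v1b1: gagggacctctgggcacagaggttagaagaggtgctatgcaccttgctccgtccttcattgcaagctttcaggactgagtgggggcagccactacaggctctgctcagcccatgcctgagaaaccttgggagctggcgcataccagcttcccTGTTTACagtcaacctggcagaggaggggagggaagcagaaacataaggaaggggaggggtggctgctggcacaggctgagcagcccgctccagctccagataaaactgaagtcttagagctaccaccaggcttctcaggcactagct
Atp6v0a4: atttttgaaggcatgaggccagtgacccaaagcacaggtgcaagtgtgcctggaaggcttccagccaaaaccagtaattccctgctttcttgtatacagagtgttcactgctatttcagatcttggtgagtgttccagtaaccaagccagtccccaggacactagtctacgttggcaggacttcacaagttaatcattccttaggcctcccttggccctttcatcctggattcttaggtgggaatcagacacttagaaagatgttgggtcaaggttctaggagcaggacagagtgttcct
Foxi1: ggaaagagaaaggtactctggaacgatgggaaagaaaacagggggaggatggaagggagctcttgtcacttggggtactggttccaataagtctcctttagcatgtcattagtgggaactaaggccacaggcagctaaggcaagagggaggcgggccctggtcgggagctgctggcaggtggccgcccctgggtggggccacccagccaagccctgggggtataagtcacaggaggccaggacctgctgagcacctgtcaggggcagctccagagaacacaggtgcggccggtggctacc

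Levels per length ranged widely over the 34 genes. In wildtype kidneys the ubiquitous subunits Atp6v1e1 (231 ± 20.9 TPM, SD, n = 4), Atp6v0b (214 ± 9.69 TPM) and Atp6v0c (205 ± 3.58 TPM) stood highest, and Slc26a7 (0.773 ± 0.143 TPM), an anion exchanger gene, lowest. The first of these differed from the next by less than its SD. Atp6v1b1 (71.0 ± 11.3 TPM) and Atp6v0a4 (65.8 ± 5.10 TPM) were the highest of the intercalated cell subunits, and also did not differ beyond their spread. Car2 (76.7 ± 2.69 TPM), Car12 (47.4 ± 5.43 TPM) and Car15 (52.3 ± 2.69 TPM) are known from other tubule cells too, so their levels in whole kidney are not those of intercalated cells alone. The defining intercalated cell genes Foxi1 (9.96 ± 0.251 TPM), Slc26a4 (10.8 ± 0.932 TPM), Aqp6 (12.8 ± 0.479 TPM) and Insrr (4.66 ± 0.552 TPM) were detected in all 8 libraries.

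**Figure D2:**
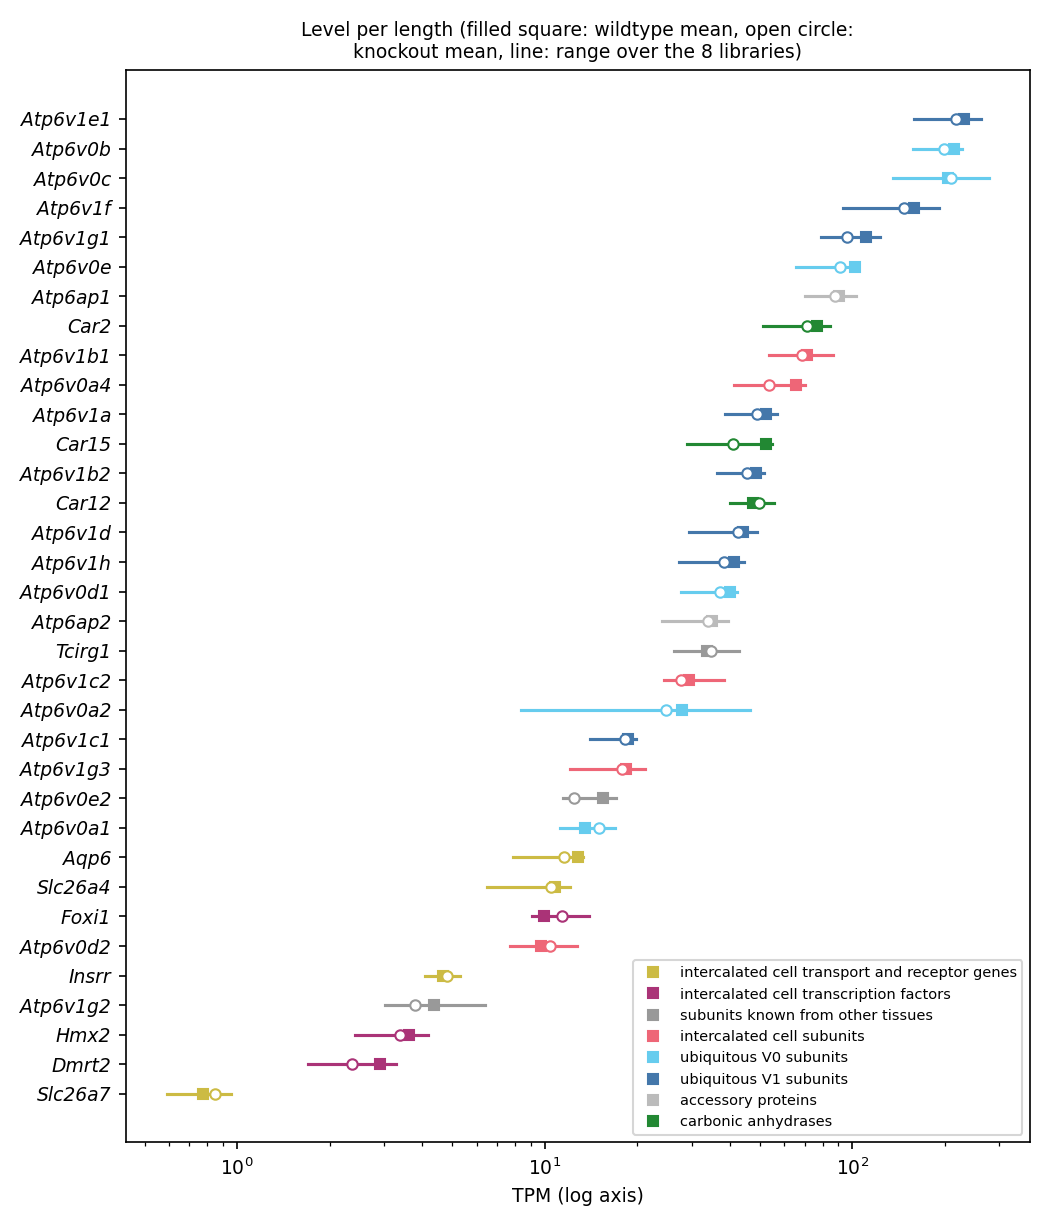
Level of each tested gene in TPM on a log axis, ordered by the wildtype mean (filled squares; open circles are knockout means, lines the range over the 8 libraries). Atp6v1e1 stands highest at 231 TPM and Slc26a7 lowest at 0.773 TPM, and the range of Atp6v0a2, from 8.36 to 46.5 TPM, is wide for its level.

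The ubiquitous V1 subunits form the ATP-splitting head, the rotor and the stators of the pump, and they were at nearly the same level in both groups. Their 8 log2 fold changes ran from -0.07 to 0.09 with a median of 0.03, 7 of them positive, and all 8 intervals lay within 1.5-fold. Atp6v1a, which encodes the catalytic A subunit, measured 421 ± 5.12 CPM in knockout kidneys and 413 ± 21.9 CPM in wildtype. Atp6v1b2, the B subunit of most cells, measured 250, 248, 245 and 246 CPM in knockouts 1 to 4 and 248, 234, 238 and 242 CPM in wildtypes 1 to 4. These values varied less within groups than those of 99.9% of the 13128 genes with at least 5 CPM, and the log2 fold change was 0.04 ± 0.05 (SE). Atp6v1h, the regulatory H subunit, measured 137 ± 10.2 and 134 ± 6.77 CPM, and Atp6v1c1, the C subunit that joins and leaves the complex as it assembles, measured 72.9 ± 2.06 and 68.3 ± 3.89 CPM. Atp6v1g1, of the stator, was the member with a negative value, at 186 ± 15.0 and 195 ± 26.0 CPM.

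The 6 ubiquitous V0 subunits had a median log2 fold change of 0.02, 4 positive and 2 negative. With the V1 subunits they made 14 genes with a median of 0.03, which was 0.0025 without knockout 3 and 0.0567 without knockout 2. Atp6v0a1 (chr11:101009452-101063719 of GRCm38, plus strand), an a subunit form abundant in neurons and present in most cells, measured 82.5, 73.3, 77.8 and 74.1 CPM in knockout 1 to 4. It measured 67.5, 56.6, 53.0 and 75.2 CPM in wildtypes 1 to 4. Wildtype 4 lay above the knockout libraries 2 and 4, so the groups overlapped, and the other wildtype libraries lay below all knockout libraries. The log2 fold change was 0.29 ± 0.11 (SE; edgeR adjusted p = 0.711). Atp6v0c, the proteolipid of the rotor ring, measured 413 ± 80.6 CPM in knockout, where knockout 1 was high at 523 CPM, and 371 ± 12.7 CPM in wildtype. Atp6v0d1, which links the ring to the head, measured 109 ± 7.61 and 107 ± 3.20 CPM, and Atp6v0b, the other rotor proteolipid, 159 ± 8.41 and 156 ± 11.2 CPM.

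Atp6v0a2, the a subunit form of the Golgi and endosomes, differed more among libraries of the same group than between groups. It measured 63.5, 70.4, 44.0 and 135 CPM in knockouts 1 to 4 and 24.5, 140.1, 74.8 and 91.9 CPM in wildtypes 1 to 4. The highest library held 5.73 times the lowest, and 1.20% of the 13128 genes with at least 5 CPM varied more within groups. The gene lies on chromosome 5 from 124628576 to 124724455 (GRCm38, plus strand). The nearby genes Tctn2, Gtf2h3, Eif2b1 and Ddx55, chosen after their values were seen, ranged at most 1.55-fold over the same 8 libraries, and Tctn2, which ends just before Atp6v0a2 starts, ranged 1.15-fold. For Atp6v0a2 these libraries therefore bound a genotype difference only loosely, as its interval shows.

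**Figure D3:**
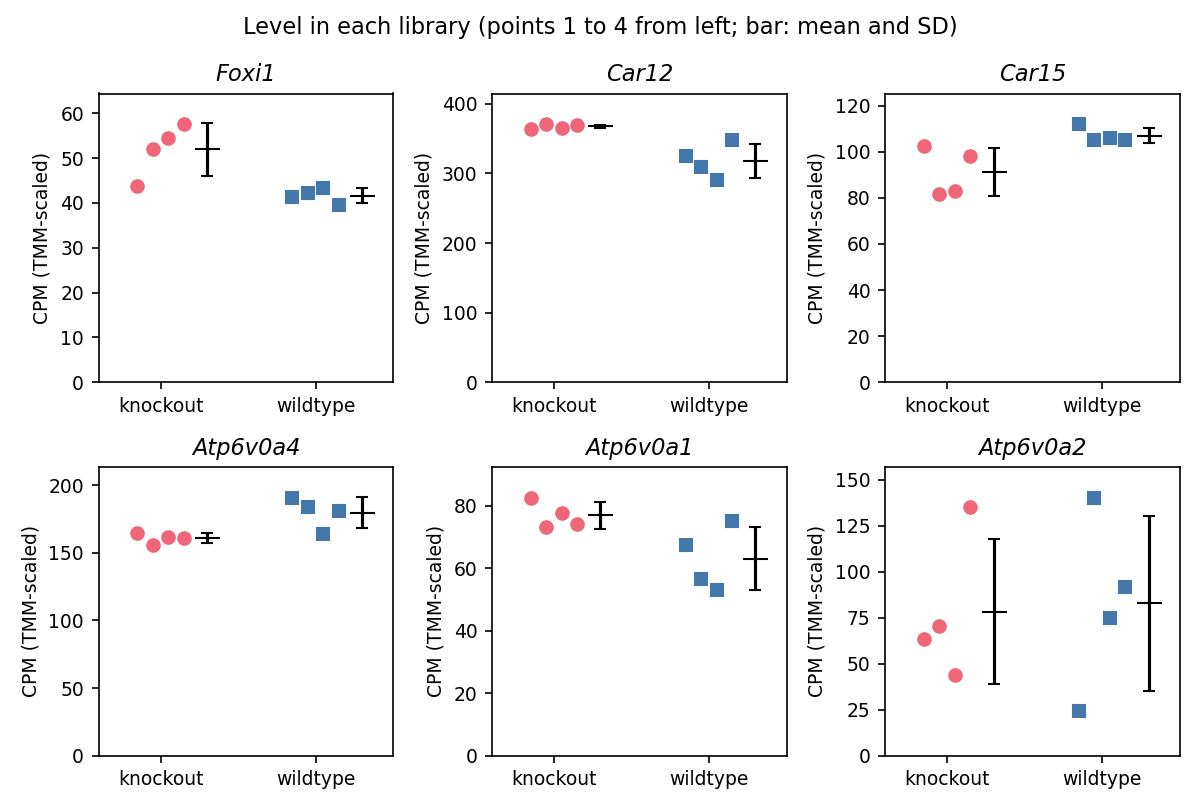
CPM of 6 genes in each library, knockout as circles and wildtype as squares, with the mean and SD beside each group. Knockout libraries lie above all wildtype libraries for Foxi1 and Car12 and below them for Car15, while Atp6v0a4 and Atp6v0a1 overlap by 1 wildtype library each and Atp6v0a2 spreads from 24.5 to 140.1 CPM within wildtype.

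The 5 intercalated cell subunits had a median log2 fold change of 0.08, 4 positive and 1 negative, and all 5 intervals lay within 1.5-fold. The median was 0.03 without wildtype 4 and 0.13 without wildtype 1. Atp6v1b1, the B form whose loss causes renal tubular acidosis with deafness, measured 198, 215, 211 and 250.3 CPM in knockout kidneys and 191, 185, 212 and 240 CPM in wildtype. The groups overlapped (log2 fold change 0.08 ± 0.10; edgeR adjusted p = 0.947). Atp6v0a4, the a form mutated in another kind of that disease, was the negative member, at 164.2, 155.5, 161.4 and 161.2 CPM in knockout 1 to 4. In wildtype 1 to 4 it measured 190.5, 183.5, 163.8 and 180.6 CPM. Wildtype 3 lay just below knockout 1 and the other 3 wildtype libraries lay above all knockout libraries. The log2 fold change was -0.16 ± 0.06, with an interval from -0.30 to -0.02 (edgeR adjusted p = 0.722). The gene, on chromosome 6 from 38048483 to 38124586 (GRCm38, minus strand), shares its strand with the overlapping D630045J12Rik, so reads of the shared stretch could have been divided between them. D630045J12Rik measured 42.1 ± 3.54 CPM in knockout kidneys and 37.7 ± 5.78 CPM in wildtype. Tmem213 overlaps on the other strand, at 71.9 ± 12.6 and 86.3 ± 7.71 CPM. The libraries keep strand, and whether the counting used it is not stated in the labels.

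Among the other subunits of this kind, Atp6v0d2 measured 48.2 ± 6.04 CPM in knockout kidneys and 41.3 ± 7.59 CPM in wildtype, at a log2 fold change of 0.22 ± 0.14 (edgeR adjusted p = 0.884). Atp6v0d2 is the d form of intercalated cells and osteoclasts. Atp6v1g3, the kidney form of the G subunit, measured 62.9 ± 8.05 and 59.7 ± 5.37 CPM. Atp6v1c2, a C form of kidney and lung, measured 38.0 ± 4.32 and 36.6 ± 8.24 CPM. Taking in each library the median log2 deviation of a set's members from their own means, the intercalated cell set minus the ubiquitous set came to 0.0037 ± 0.114 for the knockout libraries and 0.0045 ± 0.0981 for wildtype (SD, n = 4 each).

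Within a library the 2 forms of a subunit can be compared with no scaling between libraries. By TPM, the intercalated cell form was the larger share in wildtype for B (Atp6v1b1, 59.2% ± 2.81, SD, n = 4) and for C (Atp6v1c2, 60.9% ± 4.89). Among the a forms Atp6v0a4 took 47.0% ± 5.56, Tcirg1 24.1% ± 3.49, Atp6v0a2 19.3% ± 9.78 and Atp6v0a1 9.62% ± 1.76. In knockout kidneys these shares were 42.4% ± 3.91, 27.2% ± 3.28, 18.6% ± 7.59 and 11.8% ± 1.32. The share of Atp6v0a4 ran from 37.6% to 47.2% in knockout libraries and from 42.7% to 55.1% in wildtype, with overlap. That of Atp6v0a1 overlapped too. The ubiquitous form was the larger share for d (Atp6v0d1, 80.5% ± 2.89) and for G (Atp6v1g1, 82.9% ± 1.97, against 13.8% ± 1.09 for Atp6v1g3). These are shares of transcripts in the whole kidney. They are not shares in intercalated cells alone, and not of pumps in a cell.

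The ratio of Atp6v0a4 to Atp6v0a1 was 3.41, 3.63, 3.56 and 3.73 in knockouts 1 to 4 and 4.84, 5.56, 5.30 and 4.12 in wildtype 1 to 4. The groups did not overlap, with all knockout ratios on the lower side. The mean log2 ratio differed by -0.46, or 0.728 of the wildtype ratio, and the exact two-sided permutation test gave p = 0.0286, the smallest that 70 relabelings of 8 libraries allow, and 0.143 after Benjamini-Hochberg adjustment over the 5 ratios tested. With 4 libraries a group no single ratio among 5 could pass 0.05 after that adjustment. The ratio is made from the same counts as the values of Atp6v0a4 and Atp6v0a1 given above and adds no separate measurement. The other 4 ratios overlapped between groups. The log2 ratio of Atp6v1b1 to Atp6v1b2 differed by 0.04 (exact permutation test, p = 0.743, adjusted 0.929), that of Atp6v0d2 to Atp6v0d1 by 0.22 (exact permutation test, p = 0.229, adjusted 0.571), that of Atp6v1g3 to Atp6v1g1 by 0.14 (exact permutation test, p = 0.343, adjusted 0.571), and that of Atp6v1c2 to Atp6v1c1 by -0.02 (exact permutation test, p = 1).

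**Figure D4:**
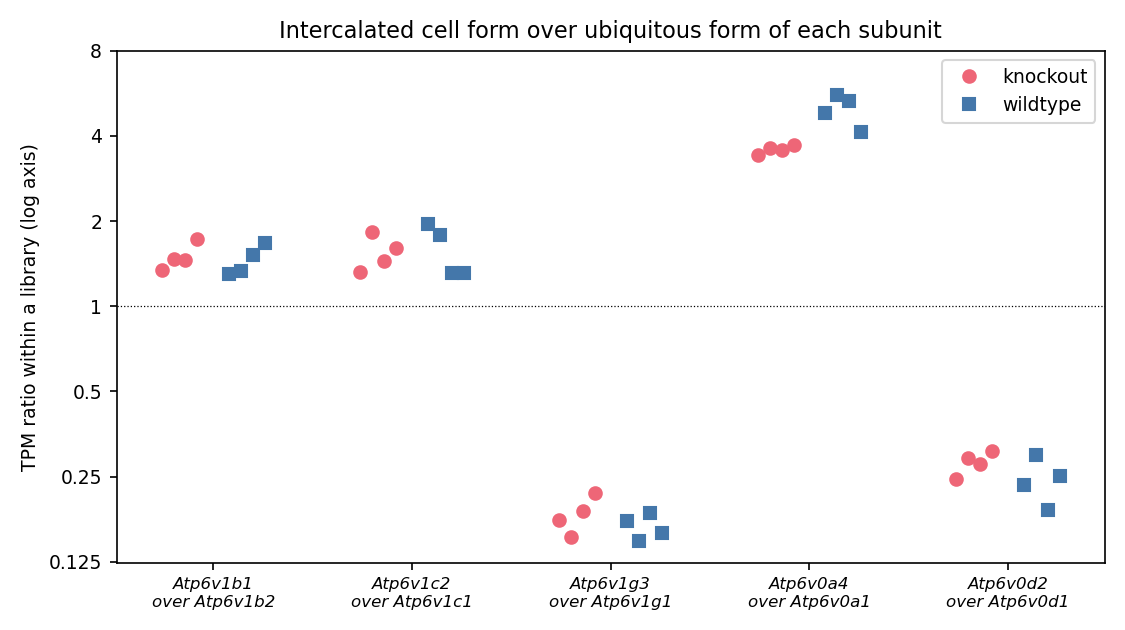
TPM ratio of the intercalated cell form to the ubiquitous form of 5 subunits in each library, on a log axis, with the dotted line at equal levels. The Atp6v0a4 to Atp6v0a1 ratios of knockout libraries (circles, 3.41 to 3.73) lie below those of wildtype libraries (squares, 4.12 to 5.56), and the other ratios overlap.

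Of the subunit forms known from other tissues, Tcirg1 had the highest level in wildtype kidneys (33.7 ± 3.52 TPM). Tcirg1, the a3 form that osteoclasts use to dissolve bone, measured 58.7, 47.8, 45.7 and 47.4 CPM in knockout kidneys and 44.9, 40.0, 45.7 and 46.7 CPM in wildtype, with overlapping groups (log2 fold change 0.17 ± 0.10; edgeR adjusted p = 0.854), and the difference was 0.08 without knockout 1. Atp6v0e2, an e form abundant in brain, measured 37.4 ± 3.55 and 42.0 ± 4.43 CPM (log2 fold change -0.17 ± 0.10), and Atp6v1g2, the neuronal G form, 8.32 ± 1.59 and 8.58 ± 2.73 CPM. Atp6v1e2, the E form of testis, was the untested subunit. Macrophage and osteoclast markers were measured because both cell types use Tcirg1. Of 8 macrophage markers 0 passed, and their log2 fold changes, 4 positive and 4 negative, had a median of -0.009. The summed level was 141 to 165 CPM in knockout kidneys and 153 to 165 CPM in wildtype, with overlap. Lyz2 and Csf1r, 25% of the 8, fell in knockout with unadjusted edgeR p-values below 0.05, against 3.08% of all genes tested. Of 6 osteoclast markers Dcstamp was too low to test. Of the other 5, 0 passed, with 3 positive and 2 negative. Calcr, low at 1.25 to 2.70 CPM, was higher at an unadjusted edgeR p under 0.05 (20% of the 5, beside 3.11% of all tested genes). Ocstamp, at 0.759 to 2.31 CPM, had a log2 fold change of -0.59. The summed level was 28.1 to 41.8 CPM in knockout kidneys and 30.8 to 39.2 CPM in wildtype. These levels in whole kidney do not show that osteoclasts were present. The part of either cell type in the Tcirg1 level was not tested. The accessory proteins Atp6ap1, which helps assemble the pump, and Atp6ap2, the prorenin receptor, measured 203 ± 7.34 against 190.4 ± 11.8 CPM and 152 ± 14.8 against 144 ± 6.69 CPM.

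The transcription factors of intercalated cells had values in both directions. Foxi1 (chr11:34204338-34208089 of GRCm38, minus strand) measured 43.8, 52.2, 54.6 and 57.5 CPM in knockouts 1 to 4 and 41.3, 42.3, 43.4 and 39.6 CPM in wildtypes 1 to 4. Knockout 1 lay just above the highest wildtype library, and the other 3 lay well above it. The group means were 52.0 ± 5.92 CPM and 41.6 ± 1.62 CPM (SD, n = 4 each). The log2 fold change was 0.32 ± 0.09, or 25% (95% interval 8.42% to 44.0%), at an edgeR adjusted p of 0.468, with 633 to 1156 counts per library. With limma on log2(TPM + 1) it was 0.16. Hmx2, a homeobox gene of these cells, measured 11.9 ± 1.98 and 11.7 ± 1.52 CPM. Dmrt2, known from the acid-secreting type, measured 10.7 ± 1.09 and 12.1 ± 1.45 CPM (log2 fold change -0.17 ± 0.13; edgeR adjusted p = 0.916). The 3 log2 fold changes had a median of 0.03.

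The transport and receptor genes of intercalated cells had a median log2 fold change of 0.13, 3 positive and 1 negative, and 0 of 4 had an unadjusted p under 0.05. Insrr, a receptor that senses alkaline fluid, measured 47.5, 54.5, 48.8 and 49.6 CPM in knockout kidneys and 48.7, 42.6, 38.9 and 45.3 CPM in wildtype. Wildtype 1 lay above knockout 1, and the other wildtype libraries lay below all knockout libraries (log2 fold change 0.19 ± 0.09; edgeR adjusted p = 0.814). Slc26a7, a chloride and bicarbonate exchanger gene of acid-secreting cells, measured 8.15 ± 0.432 and 6.77 ± 1.15 CPM (log2 fold change 0.27 ± 0.15; edgeR adjusted p = 0.859). Slc26a4, which encodes pendrin, the exchanger of bicarbonate-secreting cells, measured 63.3 ± 8.79 and 60.5 ± 3.19 CPM (log2 fold change 0.06 ± 0.10), with knockout 2 low at 50.2 CPM. Aqp6, a channel of intracellular vesicles in the acid-secreting type, measured 45.0 ± 4.49 and 45.9 ± 3.09 CPM. Together with the transcription factors, the 7 genes outside the pump had a median of 0.06, which was 0.03 without knockout 3 or wildtype 3 and 0.15 without knockout 2.

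Carbonic anhydrases supply the protons and bicarbonate that these cells move, and the 3 measured here went in different directions. Car12 (chr9:66713686-66766845 of GRCm38, plus strand), a membrane-anchored enzyme, measured 364.6, 370.5, 365.9 and 369.0 CPM in knockout 1 to 4, a narrow band that lay above 325.8, 308.6, 290.0 and 348.1 CPM in wildtypes 1 to 4. The log2 fold change was 0.21 ± 0.07 (edgeR adjusted p = 0.588), and 0.07 with limma on log2(TPM + 1). Car15, another membrane-anchored form, measured 102.5, 81.9, 82.9 and 98.1 CPM in knockouts 1 to 4 and 111.9, 105.2, 106.0 and 105.0 CPM in wildtypes 1 to 4. The groups did not overlap, with knockout 1 and 4 near the wildtype libraries, and the log2 fold change was -0.23 ± 0.09 (edgeR adjusted p = 0.700). Car15 (chr16:17835276-17838364 of GRCm38, minus strand) lies almost wholly within Gm20518 on the same strand, so its reads could be divided between them. Gm20518 measured 17.4 ± 2.45 CPM in knockout kidneys and 20.2 ± 1.45 CPM in wildtype. Car2, the cytosolic enzyme of intercalated and many other cells, measured 235 ± 19.9 and 233 ± 14.9 CPM.

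Further genes of the same cells and of the pump's surroundings were read from the same fit. Of 14 other intercalated cell genes 0 passed, and 6 were positive and 8 negative with a median of -0.03. At an unadjusted edgeR p under 0.05 there were 2 higher and 2 lower (14.3% each, beside 3.11% and 3.08% of all tested genes). Slc4a1, the basolateral anion exchanger of acid-secreting cells and also of red blood cells, measured 57.5, 59.3, 42.8 and 45.7 CPM in knockout kidneys and 39.3, 42.6, 37.1 and 44.2 CPM in wildtype, with knockout 3 inside the wildtype range (log2 fold change 0.33 ± 0.12; edgeR adjusted p = 0.664). Rhbg, a basolateral ammonia transporter gene, measured 52.8 ± 9.05 and 67.8 ± 8.38 CPM with overlapping groups (log2 fold change -0.36 ± 0.13; edgeR adjusted p = 0.666). The remaining ones, named after their values were seen, were Slc4a9, an exchanger of bicarbonate-secreting cells, at 110.5 ± 9.37 and 97.0 ± 6.77 CPM, and Atp12a, a proton and potassium pump gene, at 57.3 ± 5.58 and 68.1 ± 8.77 CPM.

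Of 13 genes that help assemble or regulate the pump 0 passed, and the median was 0.03. Rogdi, of the complex that joins V1 to V0, measured 79.5 ± 9.57 and 93.0 ± 3.52 CPM (log2 fold change -0.23 ± 0.09, edgeR adjusted p = 0.711). It was the 1 member with an unadjusted edgeR p under 0.05 (7.69% of the 13, beside 3.08% of all tested genes lower). Dmxl2, of the same complex, measured 40.8 ± 3.17 and 35.8 ± 4.18 CPM (log2 fold change 0.19 ± 0.10). Of 18 lysosome genes 0 passed, and the median was -0.003. Tfe3, a relative of TFEB that drives lysosomal genes, measured 51.7 ± 10.5 and 40.5 ± 5.67 CPM with overlapping groups (log2 fold change 0.35 ± 0.15; edgeR adjusted p = 0.775), and Ctsb, a lysosomal protease, 454 ± 20.7 and 481 ± 13.6 CPM (log2 fold change -0.08 ± 0.06).

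Markers of neighbouring cells show what else differed in these kidneys. Principal cells share the collecting duct with intercalated cells, and of their 9 markers 0 passed and 0 had an unadjusted p under 0.05, with a median of 0.06. Their summed level was 784 to 1239 CPM in knockout kidneys and 846 to 887 CPM in wildtype. Knockout 1 stood apart most in Aqp2, the water channel of these cells, at 478 CPM against 149 to 202 CPM in the other 7 libraries. It was also the highest library for Aqp3 (148 CPM, others at most 123), Aqp4 (78.9 CPM, others at most 47.8) and Elf5 (20.8 CPM, others at most 18.4). It was not the highest for Scnn1b, Scnn1g or Hsd11b2. Aqp2, Aqp3, Aqp4, Elf5 and Hsd11b2 were named after their values were seen. The epithelial sodium channel subunits Scnn1b and Scnn1g measured 117 ± 3.43 against 108 ± 5.90 CPM and 77.6 ± 2.34 against 84.1 ± 5.93 CPM. Of 7 proximal tubule markers 0 passed (median 0.02). Slc5a2, a glucose transporter, measured 214 ± 27.3 and 274 ± 23.4 CPM, and Slc22a6, an organic anion transporter, 160.2 ± 10.2 and 144 ± 0.872 CPM, both without overlap between groups. Each made up 14.3% of the 7 in its direction, beside 2.06% of all tested genes below and 1.97% above. The distal convoluted tubule lies just upstream of the segments that hold intercalated cells. Its 6 markers, listed with earlier results of these data known, had a median of -0.53. All 6 were negative with an unadjusted edgeR p under 0.05, beside 3.08% of all tested genes lower. In 5 (83.3%) the groups did not overlap, beside 2.06% of all genes in that direction. Of the 6, 2 fell past the adjusted threshold, beside 0.0809% of all genes in either direction. The other 4 were Wnk4, Kcnj10, Klhl3 and Trpm6, named after their values were seen. Slc12a3, its sodium chloride cotransporter, fell from 464 ± 23.9 to 247 ± 30.9 CPM (log2 fold change -0.91; edgeR adjusted p = 0.00634) and Pvalb, its calcium buffer, from 39.3 ± 4.31 to 9.79 ± 1.68 CPM (edgeR adjusted p = 3.6e-04). Without the libraries with Xist reads Slc12a3 missed the threshold at a log2 fold change of -0.94 (edgeR adjusted p = 0.0715). The summed level of the 6 was 455 to 543 CPM in knockout kidneys and 796 to 868 CPM in wildtype, so these marker sums did not overlap. Their part in the values of Foxi1, Car12, Car15 and Atp6v0a4 was not tested.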

How the data were processed

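Whole-kidney RNA gave 4 knockout and 4 control littermate libraries, strand-specific and amplified by 15 PCR cycles, per the labels' protocols. Salmon, DESeq2 1.14.1 and mm10 are named in the submitters' processing notes, with no annotation release. The authors deposited whole-number counts that carry no gene names, and TPM with identifiers. Row order linked the 47729 counted genes to as many distinct TPM identifiers. This was checked on 13251 well counted genes (50 or more counts per library), where log2(count/TPM) had a median SD over libraries of 0.000745, or 0.281 when shifted by 1 row.

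Genotypes were compared with the quasi-likelihood test of edgeR 4.0.16 (R 4.3.3; filterByExpr, TMM scaling, genotype alone, two-sided, Benjamini-Hochberg over 18548 genes, threshold 0.05). The script was tested on simulated data. The SE is the absolute log2 fold change over the square root of F. The biological coefficient of variation was 20.7%. Isoform ratios used TPM within a library and an exact permutation test. Alternatives were RLE and upper-quartile scaling, no filter, a filter of 1 CPM in 4 libraries, DESeq2 1.42.0, limma 3.58.1 on log2(TPM + 1) and log2(TPM + 0.1), the replicate number as a block, each library left out, the libraries with Xist reads left out, and ribosomal and mitochondrial rows left out. GENCODE (GRCm38) gave coordinates. The genes and all gene lists were chosen with earlier results of these data known. Every gene of the rule could be named. From each other list up to 4 genes past the threshold, or the 2 with the smallest p, were named, and any further gene is said to be chosen after its values were seen.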

Additional observations from a re-analysis of the deposited data

Results flagged for a closer look

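Over the 34 tested genes and both genotypes, 68 sets of 4 libraries were looked at, and in 8 of them a single library stood far from its group, where about 3.4 (1 in 20) would do so by chance. In wildtype kidneys Atp6v1a was low in wildtype 3 at 379.9 CPM, with the others at 420.6 to 425.4 CPM. Atp6v0c was low in wildtype 4 at 352.4 CPM, with the others at 376.1 to 379.7 CPM. Hmx2 was low in wildtype 3 at 9.38 CPM, with the others at 12.4 to 12.5 CPM. Dmrt2 was high in wildtype 2 at 14.3 CPM, with the others at 11.3 to 11.4 CPM, and Car15 was high in wildtype 1 at 111.9 CPM, with the others at 105.0 to 106.0 CPM. In knockout kidneys Slc26a4 was low in knockout 2 at 50.2 CPM, with the others at 66.8 to 68.6 CPM. Atp6v0e2 was high in knockout 2 at 42.7 CPM, with the others at 35.3 to 36.4 CPM, and Tcirg1 was high in knockout 1 at 58.7 CPM, with the others at 45.7 to 47.8 CPM.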

How the results depend on the processing

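None of the 34 genes passed under any of the 18 alternatives. Over them the log2 fold change of Foxi1 ran from 0.16 to 0.39 (adjusted p 0.186 to 0.785), of Car12 from 0.07 to 0.25 (0.285 to 0.916), of Car15 from -0.38 to -0.18 (0.529 to 0.959), of Atp6v0a4 from -0.30 to -0.13 (0.594 to 0.999) and of Atp6v0a1 from 0.14 to 0.38 (0.419 to 0.999). With limma on log2(TPM + 1) and log2(TPM + 0.1), on TPM not scaled between libraries, the median of all genes was -0.11 and -0.14. In both fits 18 of the 34 changed sign. The medians there were -0.109 and -0.110 for ubiquitous subunits, -0.0674 and -0.0690 for intercalated cell subunits and -0.0792 and -0.0897 for intercalated cell genes outside the pump, and the log2 fold changes were -0.0792 and -0.0897 for Slc26a4, -0.0613 and -0.0622 for Atp6v1b1, -0.101 and -0.104 for Atp6v1b2 and -0.0343 and -0.0362 for Scnn1b. Whole-table calls were 15 with edgeR, 27 with no filter, 154 with DESeq2, 6 with either limma fit and 3 without the libraries with Xist reads. Leaving out 1 library gave 10 to 52, with 52 without wildtype 4 and 29 without knockout 3. Slc12a3 missed the threshold without the libraries with Xist reads (log2 fold change -0.94, adjusted p 0.0715) and with limma (-1.04 and -1.06, adjusted p 0.0702 and 0.0647). The cause of these shifts was not tested. Leaving out 1 library, Atp6v0a2 ran from -0.48 to 0.29, the log2 ratio difference of Atp6v1c2 to Atp6v1c1 from -0.105 to 0.0860, of Atp6v1b1 to Atp6v1b2 from -0.0278 to 0.112, of Atp6v0d2 to Atp6v0d1 from 0.106 to 0.322, of Atp6v1g3 to Atp6v1g1 from 0.0501 to 0.219 and of Atp6v0a4 to Atp6v0a1 from -0.54 to -0.40. In the same fits the medians ran from 0.0025 to 0.0567 for ubiquitous subunits, 0.0301 to 0.127 for intercalated cell subunits and 0.0303 to 0.147 for intercalated cell genes outside the pump, and log2 fold changes ran from 0.08 (without knockout 1) to 0.21 for Tcirg1, 0.02 (without knockout 1) to 0.16 (without knockout 2) for Slc26a4, 0.13 (without wildtype 3) to 0.35 (without wildtype 2) for Atp6v0d2, -0.25 to -0.09 (without wildtype 2) for Dmrt2, 0.16 (without wildtype 1) to 0.34 for Slc26a7, 0.0090 (without knockout 4) to 0.16 (without wildtype 4) for Atp6v1b1 and 0.11 (without wildtype 3) to 0.24 for Dmxl2.

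A pairing by replicate number was not seen, since the deviations of same-numbered libraries correlated at -0.08 to 0.04. No knockout library correlated best with its own number. As these values rest on few libraries, they cannot exclude a pairing. With the replicate number as a block edgeR called 10 genes and 0 of the 34, and Atp6v0a2 had a log2 fold change of 0.0269.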
